A study of Mus musculus with 15 samples.

Results

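Hcar2 (ENSMUSG00000045502) encodes hydroxycarboxylic acid receptor 2, a cell surface receptor for the ketone body beta-hydroxybutyrate and for niacin. Its level is described here in every library of a study of mouse retinal microglia. It is 1 gene of the 35735 in the authors' table of gene levels. The gene was chosen by its change between microbead and sham retinas of wild-type mice, in these same libraries. Its values in that comparison, and in every comparison that uses the wild-type libraries, are therefore given as a description with no test. Only microbead against sham in Apoe-/- mice, whose fold change was not used in that choice, was tested. That test is not fully separate from the choice. Earlier results of these data were known, and its edgeR fit shared the estimate of spread with the wild-type libraries.

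RNA was sequenced in bulk from microglia sorted from single retinas of C57BL/6 mice aged 12 weeks. The groups were Apoe-/- retinas injected with microbeads (4 libraries), Apoe-/- retinas injected as sham controls (4), wild-type retinas injected with microbeads (3) and wild-type sham retinas (4). Injected microbeads obstruct the eye's outflow and so raise pressure inside it, which makes them a model of glaucoma, and Apoe encodes the lipid carrier apolipoprotein E. Each retina gave 100 to 600 sorted cells, of which the labels give 100 to 300 as submitted for sequencing. The cells were positive for Fcrls and CD11b and negative for Ly6c, a gate for resident microglia that leaves out any cell without surface Fcrls. Whether the numbered retinas were taken from different mice is not stated in the labels, so the spread between libraries may be partly technical. The deposited tables of the Apoe-/- libraries carry the letter H in their names and those of the wild-type libraries the letter G. What the letter stands for is not stated. An effect of genotype and one of whatever the letter stands for cannot be told apart.

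The receptor couples to Gi proteins, which hold back adenylyl cyclase and so lower cyclic AMP. In fat cells it restrains the release of fatty acids, in immune cells of the skin it triggers the prostaglandin release behind the flush that niacin causes, and in myeloid cells its activation is known to dampen inflammatory signalling. Neutrophils, macrophages and microglia are known to carry it, and in the retina it has been described in the pigment epithelium.

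The gene occupies positions 123863570 to 123865499 of chromosome 5, minus strand, on build mm10 (GENCODE M21). The annotation gives it 1 exon and 1 protein-coding transcript of 1930 bases, of which 1080 are coding. A close relative, the lactate receptor gene Hcar1, lies on the same strand 11236 bases away, from 123876736 to 123880020. The coding sequences of the pair were identical at 61.8% of 1123 aligned columns. The longest stretch they share is shown because it bears on whether reads of one gene could be assigned to the other. Both lines give coding bases 665 to 722, read 5′ to 3′ from the GENCODE M21 transcripts, for Hcar2 at chr5:123864717-123864774 and for Hcar1 at chr5:123878905-123878962, both on the minus strand of mm10. Capitals mark the longest run of bases that the 2 coding sequences share, 18 in length, with 20 bases on either side.
Hcar2: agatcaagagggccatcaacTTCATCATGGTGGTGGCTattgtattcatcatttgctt
Hcar1: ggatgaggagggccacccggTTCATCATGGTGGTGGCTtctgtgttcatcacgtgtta

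No run of 31 bases of Hcar2 occurred in any other annotated transcript on either strand, Hcar1 included, out of 1900 such runs. Hcar1 itself had 4 reads in all 15 libraries together, 2 in Apoe-/- sham library 2, 1 in Apoe-/- sham library 3 and 1 in wild-type microbead library 3. With 1 exon, Hcar2 has no splice junction that would tell reads of spliced RNA from reads of DNA or unspliced RNA.

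The libraries held 458303 to 714838 reads assigned to genes, and 6521 genes had enough reads to be tested. Apoe had 0 to 6 reads in each Apoe-/- library, against 667 to 15125 in each wild-type library. All 24 genes of a list of homeostatic microglial markers were detected in every library. Gene models of the major satellite, a centromeric repeat, took 64.1% ± 6.58 of reads in Apoe-/- microbead, 67.7% ± 4.48 in Apoe-/- sham, 45.2% ± 7.22 in wild-type microbead and 61.3% ± 4.51 in wild-type sham libraries (SD, n = 4, 4, 3 and 4). Levels below are therefore given as CPM, which relates reads to a library size scaled by the TMM method, with the authors' TPM and other scales beside them. Apoe-/- sham library 2 stood apart, with a scaled size of 225227 reads. The other libraries lay between 366080 and 1000258.

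Hcar2 was detected in all 15 libraries, and its reads were most numerous in wild-type microbead retinas. Apoe-/- microbead libraries 1 to 4 held 10, 14, 23 and 13 Hcar2 reads. Apoe-/- sham libraries 1 to 4 held 9, 1, 2 and 7. Wild-type microbead libraries 1 to 3 held 31, 106 and 86 reads, and wild-type sham libraries 1 to 4 held 13, 9, 14 and 11. Pooled over a group, that makes 60 reads in Apoe-/- microbead (exact Poisson 95% interval 45.8 to 77.2), 19 in Apoe-/- sham (11.4 to 29.7), 223 in wild-type microbead (195 to 254) and 47 in wild-type sham retinas (34.5 to 62.5). These intervals cover counting error only. A library with 0 reads of a gene could still have held up to 3 reads' worth of it, which is 3.00 to 13.3 CPM, and Hcar2 lay below that limit in 2 libraries, Apoe-/- sham 2 and 3.

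After scaling, Hcar2 stood at 20.7, 38.2, 44.7 and 20.2 CPM in Apoe-/- microbead libraries 1 to 4, against 21.4, 4.44, 3.48 and 18.3 CPM in Apoe-/- sham libraries 1 to 4. Apoe-/- sham library 1 was above 2 of the 4 Apoe-/- microbead libraries, so these groups overlapped. In wild type it stood at 44.9, 106 and 115 CPM in microbead libraries 1 to 3, against 19.7, 15.7, 16.8 and 23.7 CPM in sham libraries 1 to 4. All wild-type microbead libraries were above all wild-type sham libraries, and microbead library 1 was well below the other two of its group. The Apoe-/- sham group split into a pair of libraries near the wild-type sham level and a pair at 1 or 2 reads.

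**Figure D1:**
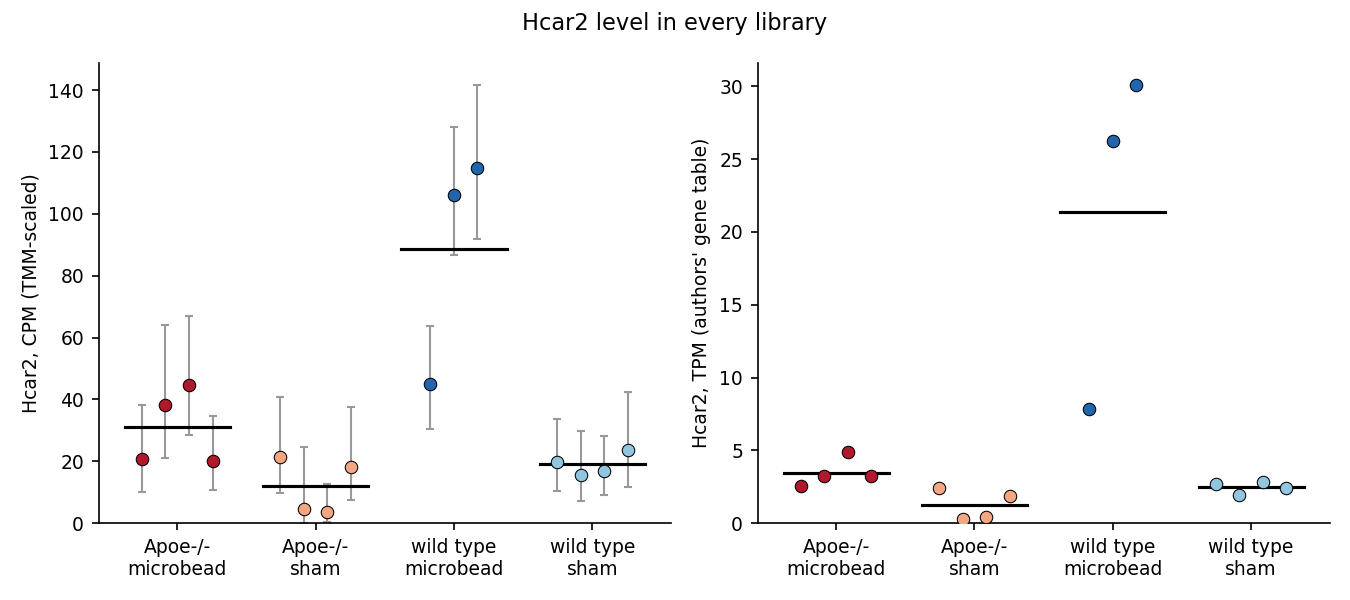
Hcar2 level in each of the 15 libraries by group, as TMM-scaled CPM with exact Poisson 95% intervals from the read count (left) and as TPM from the authors' gene table (right); points are libraries and horizontal bars are group means. The 3 wild-type microbead libraries, at 44.9 to 115 CPM, lie above all others, and the Apoe-/- sham libraries spread from 3.48 to 21.4 CPM.

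Group means were 30.97 ± 12.4 CPM in Apoe-/- microbead (SD, n = 4), 11.9 ± 9.26 CPM in Apoe-/- sham (SD, n = 4), 88.5 ± 38.0 CPM in wild-type microbead (SD, n = 3) and 19.0 ± 3.55 CPM in wild-type sham retinas (SD, n = 4). Apoe-/- microbead retinas thus had the second highest mean, below wild-type microbead and above both sham groups. Between neighbours in this order, the ranges of Apoe-/- microbead and wild-type sham libraries overlapped, and so did those of Apoe-/- sham and wild-type sham libraries. Apoe-/- microbead libraries reached 44.7 CPM and wild-type microbead libraries began at 44.9 CPM, while the exact Poisson 95% intervals of those 2 libraries were 28.3 to 67.1 CPM for Apoe-/- microbead library 3 and 30.5 to 63.7 CPM for wild-type microbead library 1.

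Reads of Hcar2 were set against those of sensory receptor genes, taken as silent in microglia. Of 1499 olfactory, vomeronasal and taste receptor genes, 201 have a single exon like Hcar2. The number of these 201 with at least as many reads as Hcar2 was 3, 1, 1 and 1 in Apoe-/- microbead libraries 1 to 4 and 2, 44, 10 and 5 in Apoe-/- sham libraries 1 to 4. It was 1, 0 and 0 in wild-type microbead libraries 1 to 3 and 2, 1, 1 and 3 in wild-type sham libraries 1 to 4. Hcar2 therefore stood above nearly all such genes in 13 libraries, and in Apoe-/- sham libraries 2 and 3 its 1 and 2 reads lay in the range of these silent genes. With reads pooled by group, 1 of the 201 reached the Hcar2 count in Apoe-/- microbead, 4 in Apoe-/- sham, 0 in wild-type microbead and 2 in wild-type sham retinas. The highest pooled count among the 201 was 206 reads in Apoe-/- microbead and 232 in Apoe-/- sham retinas. In wild type it was 164 in microbead and 175 in sham retinas. Reads were not divided by transcript length in this comparison.

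Microbead against sham in Apoe-/- retinas addressed whether the receptor gene changes with microbeads where Apoe is missing. Hcar2 averaged 2.60 times the sham level in CPM, but the change did not pass the test. Its log2 fold change was 1.33 (SE 0.50, 95% interval 0.34 to 2.31), with an edgeR quasi-likelihood p of 0.0158 and a Benjamini-Hochberg adjusted p of 0.70 over all genes tested. It ranked 109th of 6521 genes by p, in a comparison where the median log2 fold change of all genes was 0.0079. Called genes made up 0% of those tested by edgeR and 0% by DESeq2, while 453 genes (6.95%) had an unadjusted edgeR p under 0.05, 3.31% of those tested being higher with microbeads, and 432 had an unadjusted DESeq2 p under 0.05. By DESeq2 the value for Hcar2 was 1.34 on the log2 scale (SE 0.54), at an adjusted p of 0.73.

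An exact two-sided permutation test of the 8 Apoe-/- libraries gave p = 0.0857 on CPM, for a difference in means of 19.1 CPM. The smallest p that its 70 arrangements allow is 0.0286. The same test gave that smallest value, 0.0286, on the authors' TPM, where Apoe-/- microbead libraries 1 to 4 held 2.52, 3.22, 4.87 and 3.24 TPM and Apoe-/- sham libraries 2.40, 0.299, 0.402 and 1.89 TPM. On that scale all microbead libraries were above all sham libraries, as were 1.9% of the tested genes found in that table. On CPM Hcar2 overlapped between the groups, while 1.55% of tested genes had all microbead libraries above all sham libraries. The exact permutation p was 0.0571 on reads per total gene reads with no TMM scaling and 0.0857 when satellite reads were left out of the library size. The result therefore depends on the scale, and Apoe-/- sham library 1 overlapped the microbead libraries on all scales tried but TPM. Leaving out Apoe-/- sham library 2, the shallowest, gave an exact permutation p of 0.20 on CPM over 35 arrangements. In bulk RNA, fewer cells with the transcript and less of it per cell cannot be told apart.

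In wild-type retinas, the comparison in which the gene was picked out, Hcar2 averaged 4.66 times as many CPM with microbeads as with sham injection. The fitted log2 fold change was 2.23 (SE 0.43) by edgeR and 2.23 (SE 0.48) by DESeq2. The SE takes no account of the choice of the gene on this comparison. The authors' TPM were 7.81, 26.2 and 30.1 in wild-type microbead libraries 1 to 3, against 2.71, 1.95, 2.80 and 2.43 in wild-type sham libraries 1 to 4. Means were 21.4 ± 11.9 TPM in wild-type microbead (SD, n = 3) and 2.47 ± 0.381 TPM in wild-type sham retinas (SD, n = 4), a ratio of 8.65. All microbead libraries were above all sham libraries on both scales, as were 6.32% of genes tested on CPM and 21.7% on TPM. In this comparison edgeR called 0.199% of the genes tested and DESeq2 0.552%.

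The ratio of wild-type microbead to wild-type sham means was 6.62 on reads per total gene reads and 4.48 with satellite reads left out of the library size. The scales treat satellite reads differently, and TPM is also divided by Salmon's effective length of the transcript. That length averaged 3385 bases in Apoe-/- microbead, 3426 in Apoe-/- sham, 2835 in wild-type microbead and 3314 in wild-type sham libraries, all above the 1930 bases of the transcript. With log2(TPM + 1) values, the median over all genes was shifted by 0.18 between Apoe-/- microbead and Apoe-/- sham libraries and by 0.59 between wild-type microbead and wild-type sham libraries. Relative to those shifts Hcar2 stood at 0.92 in Apoe-/- and at 1.91 in wild-type retinas, on the log2(TPM + 1) scale, which understates the change of a low gene.

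**Figure D2:**
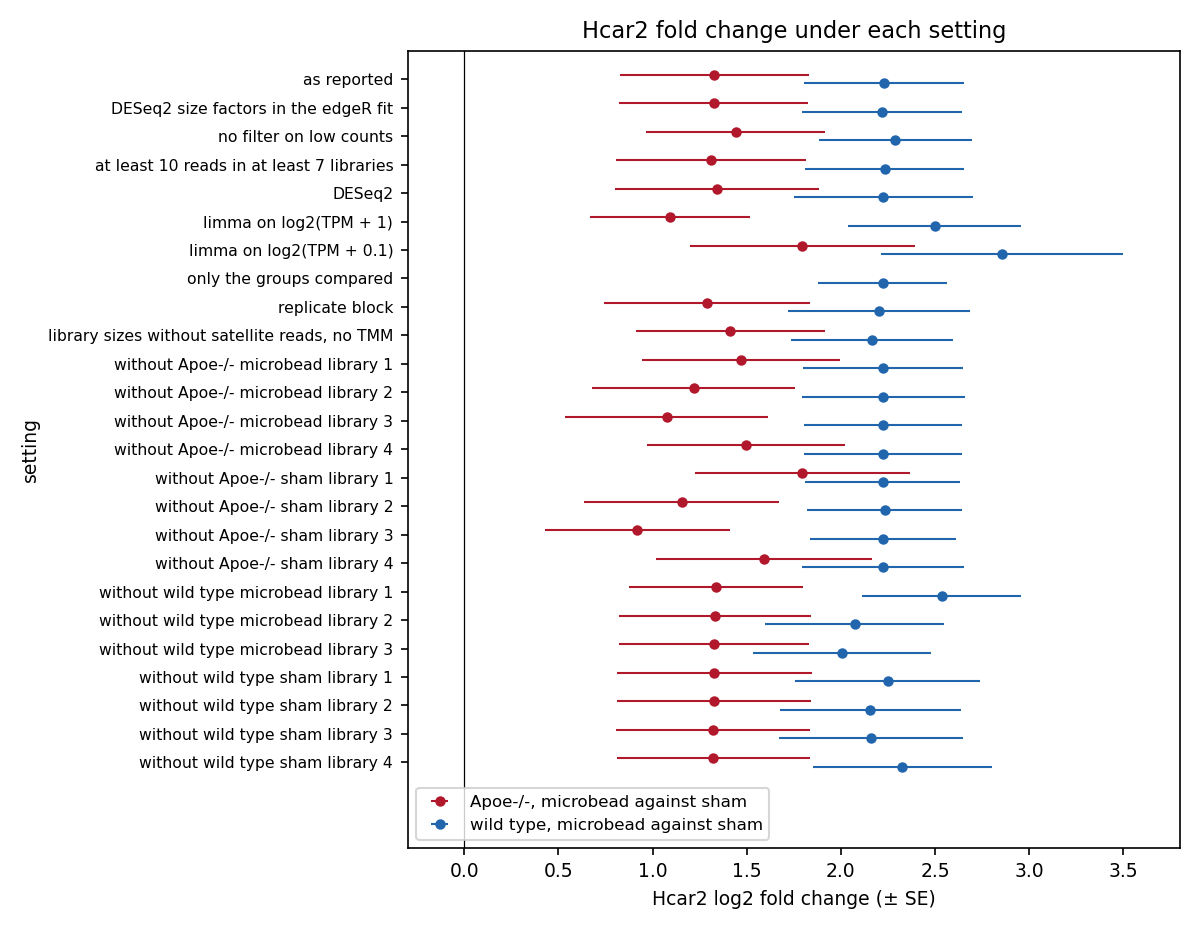
Log2 fold change of Hcar2 with its SE (horizontal axis), microbead against sham in Apoe-/- and in wild-type retinas, as reported and under each other setting of scaling, filter, tool, block or left-out library (vertical axis). Values run from 0.92 to 1.80 in Apoe-/- and from 2.01 to 2.86 in wild-type retinas; the fit of the compared groups alone has no Apoe-/- value because Hcar2 had too few reads there to be tested.

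Between genotypes, Apoe-/- microbead retinas held 0.350 times the CPM of wild-type microbead retinas, a log2 fold change of -1.53 (SE 0.42). All Apoe-/- microbead libraries were below all wild-type microbead libraries on CPM, as were 3.7% of genes tested, and on TPM, as were 24.9%. With satellite reads left out of the library size the groups overlapped, Apoe-/- microbead library 3 being just above wild-type microbead library 1. In sham retinas the Apoe-/- mean was 0.627 times the wild-type mean, a log2 fold change of -0.63 (SE 0.52). These sham groups overlapped on all scales tried. That log2 fold change was -1.11 without Apoe-/- sham library 1 and -0.23 without Apoe-/- sham library 3, the ends of its range when each library was left out. The log2 microbead response of Apoe-/- retinas minus that of wild-type retinas was -0.90 (SE 0.68), given as a description. It was -0.43 without Apoe-/- sham library 1 and -1.30 without Apoe-/- sham library 3, which again were the ends of the range. These comparisons share libraries with the wild-type comparison and with each other, so they are not separate evidence.

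Among all genes of the authors' table, Hcar2 stood at the 85.1 to 93.2 percentile of TPM in Apoe-/- microbead, 63.9 to 85.8 in Apoe-/- sham, 93.6 to 97.7 in wild-type microbead and 83.5 to 86.7 in wild-type sham libraries. TPM allows it to be set beside other receptors for small metabolites, of which 12 besides Hcar2 were tested. By mean TPM Hcar2 ranked 10th of these 13 in Apoe-/- microbead, 11th in Apoe-/- sham, 6th in wild-type microbead and 11th in wild-type sham retinas. P2ry12, the ADP receptor that marks resting microglia, ranked 1st in every group. Its means were 138 TPM in Apoe-/- microbead, 116 TPM in Apoe-/- sham, 222 TPM in wild-type microbead and 207 TPM in wild-type sham retinas. On CPM the means of P2ry12 were 525 in Apoe-/- microbead, 538 in Apoe-/- sham, 434 in wild-type microbead and 702 in wild-type sham retinas. Its log2 fold change with microbeads was -0.04 (SE 0.29) in Apoe-/- and -0.70 (SE 0.32, edgeR adjusted p = 0.61) in wild-type retinas. The order of the groups thus depended on the scale. Gpr84, a receptor for medium-chain fatty acids, averaged 23.8 ± 17.5 TPM in wild-type microbead retinas (SD, n = 3), next above the 21.4 ± 11.9 TPM of Hcar2. The other receptors of the hydroxycarboxylic, short-chain and long-chain fatty acid families were barely detected: over all 15 libraries Ffar1 had 18 reads, Ffar2 4, Ffar3 3 and Ffar4 1, and the succinate receptor gene Sucnr1 had 4.

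The genes whose pattern over the libraries was most like that of Hcar2 included 4 genes of antigen presentation by MHC class II. These were H2-Eb1, H2-Aa, H2-Ab1 and Cd74. Cd74 is also on a list of 32 markers of neurodegenerative microglia, as are Fabp5, Axl and Lyz2. Of the 30 tested genes of that list, 27 were higher with microbeads in wild-type retinas (median log2 fold change 1.10). There edgeR called 7 higher and DESeq2 9, against 0.199% and 0.552% of all genes tested. In Apoe-/- retinas 26 were higher (median 0.67) and neither tool called any. Likeness was the Pearson correlation of log2 CPM with Hcar2 over 15 libraries, ranked over 6414 genes with a mean of at least 10 CPM, and it is a description with no test. The 10 highest were H2-Eb1 (r = 0.91), Cd74 (0.90), Fabp5 (0.85), H2-Aa (0.85), Axl (0.84), H2-Ab1 (0.83), Il4ra (0.83), Eef2 (0.83), Lyz2 (0.83) and Cd72 (0.82). The median r of all ranked genes was 0.033 and the 99th percentile 0.73. The points share library depth, satellite share and group, and with each group's mean removed r was 0.79 for H2-Eb1, 0.68 for Cd74, 0.53 for H2-Aa, 0.50 for H2-Ab1, 0.34 for Fabp5 and 0.30 for Lyz2. It was 0.61 for Il4ra, 0.60 for Cd72, 0.59 for Eef2 and 0.47 for Axl. In the 8 Apoe-/- libraries alone r was 0.88 for H2-Eb1, 0.88 for Cd74, 0.76 for H2-Aa and 0.71 for H2-Ab1. The rest of the 10 had 0.77 (Il4ra), 0.75 (Cd72), 0.74 (Axl), 0.73 (Fabp5), 0.69 (Eef2) and 0.66 (Lyz2). Without wild-type microbead libraries 2 and 3, the 2 farthest from the median of Hcar2, r was 0.85 for H2-Eb1, 0.84 for Cd74, 0.74 for H2-Aa and 0.72 for H2-Ab1. For the rest it was 0.74 (Fabp5), 0.73 (Cd72), 0.73 (Axl), 0.73 (Il4ra), 0.69 (Lyz2) and 0.67 (Eef2). Spearman's rho over the 15 libraries was 0.77 for H2-Eb1, 0.72 for Cd74, 0.57 for H2-Aa and 0.55 for H2-Ab1. It was 0.84 for Fabp5, 0.81 for Axl, 0.75 for Eef2, 0.69 for Lyz2, 0.66 for Cd72 and 0.66 for Il4ra. By these measures H2-Aa and H2-Ab1 did not stand above the rest of the 10.

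H2-Eb1, which encodes a class II beta chain, had 58.0, 65.6, 27.2 and 23.3 CPM in Apoe-/- microbead libraries 1 to 4 and 26.2, 4.44, 0 and 23.5 CPM in Apoe-/- sham libraries 1 to 4. In wild type it had 75.3, 314 and 168 CPM in microbead libraries 1 to 3 and 56.2, 36.7, 37.2 and 40.9 CPM in sham libraries 1 to 4. Like Hcar2, it was lowest in Apoe-/- sham libraries 2 and 3 and highest in wild-type microbead libraries 2 and 3. Unlike Hcar2, it was higher in wild-type microbead library 2 than in library 3, and higher in Apoe-/- microbead library 1 than in library 3.

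Cd74, the invariant chain of class II, had 104, 81.9, 75.8 and 93.3 CPM in Apoe-/- microbead libraries 1 to 4 and 38.1, 13.3, 6.96 and 41.7 CPM in Apoe-/- sham libraries 1 to 4. It had 146, 504 and 232 CPM in wild-type microbead libraries 1 to 3 and 112, 68.1, 71.9 and 53.8 CPM in wild-type sham libraries 1 to 4. Fabp5, a fatty acid carrier, had 0 reads in all 4 Apoe-/- sham libraries, where Hcar2 had 1 to 9 reads. In wild-type sham retinas the phagocytic receptor gene Axl averaged 5.01 TPM, the lysozyme gene Lyz2 46.6 TPM, the interleukin 4 receptor gene Il4ra 7.18 TPM, the receptor gene Cd72 5.48 TPM and the translation elongation factor gene Eef2 32.1 TPM, all above the 2.47 TPM of Hcar2. The list depends on how likeness is measured, since 2 of the 10 genes were again among the 10 most alike by Spearman's rho, 1 of the 10 after group means were removed and 3 of the 10 on log2(TPM + 1). Without Apoe-/- sham library 2, and likewise without library 3, 4 of the 10 were again among them.

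**Figure D3:**
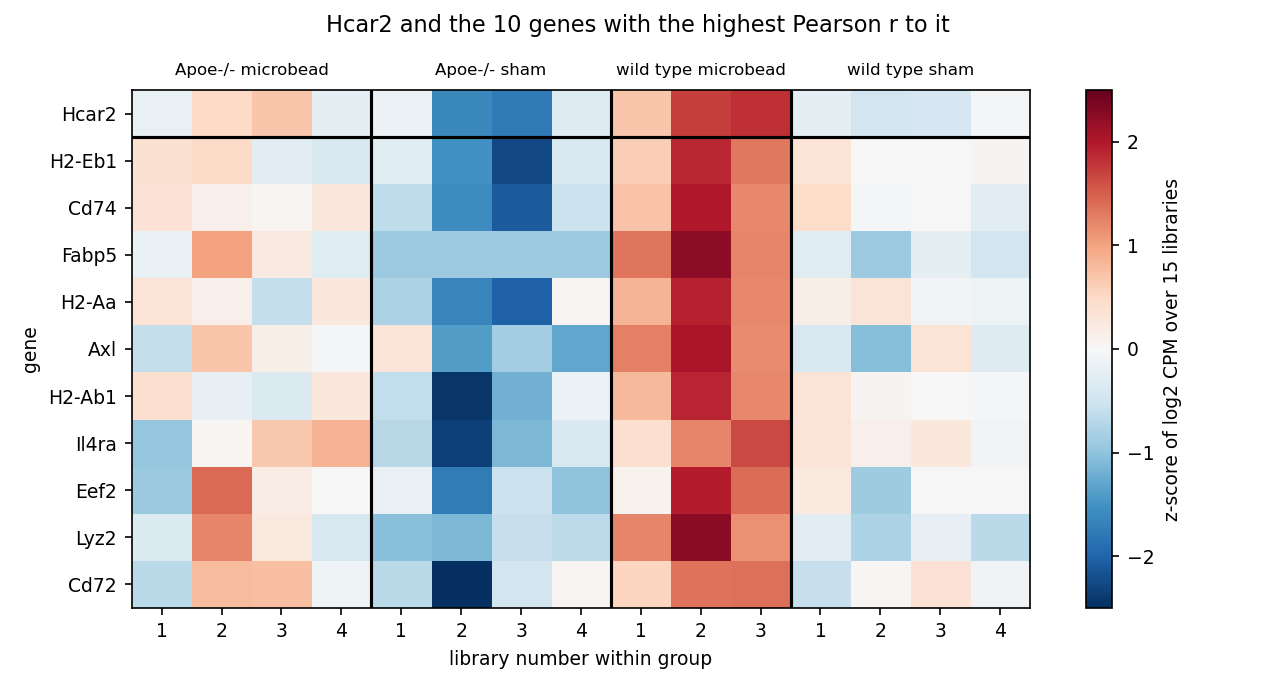
Hcar2 (top row) and the 10 genes with the highest Pearson r to it, as z-scores of log2 CPM over the 15 libraries (colour scale), with libraries in columns by group. Apoe-/- sham libraries 2 and 3 are low, and wild-type microbead libraries 2 and 3 high, in Hcar2 and in H2-Eb1, with r = 0.91 between the pair.

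Other genes on the pathway of the receptor were taken from 6 lists, 143 genes in all, of which 76 were tested. None of them passed an adjusted p under 0.05 by edgeR in either genotype. In Apoe-/- retinas, microbead against sham, 9 of the 76 had an unadjusted edgeR p under 0.05, 6 higher and 3 lower, against 6.95% of all genes tested, and DESeq2 called none. In wild-type retinas 18 of the 76 had one, 12 higher and 6 lower, against 7.87% of all genes tested, and DESeq2 called 1, the adenosine receptor gene Adora1. Without wild-type microbead library 1, edgeR called 2 in wild type, Adora1, which was higher, and the prostaglandin gene Hpgd, which was lower. The median log2 fold change of the 76 genes was 0.10 in Apoe-/- retinas, against 0.0079 over all genes, and 0.09 in wild-type retinas, against -0.011 over all genes.

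Of 12 tested receptors for metabolites and purines, 8 had a positive log2 fold change in Apoe-/- and 5 in wild-type retinas, with medians of 0.14 in Apoe-/- and -0.32 in wild-type retinas. Hcar2, at 1.33 in Apoe-/- and 2.23 in wild-type retinas, lay above the median of the list in both. It was chosen for its wild-type change, so its place there was set by that choice. Within the list, Adora1 lay above Hcar2 in both genotypes. Adora1, a Gi-coupled receptor like Hcar2, had 6.21, 43.7, 35.0 and 9.33 CPM in Apoe-/- microbead libraries 1 to 4 and 7.14, 8.88, 8.70 and 0 CPM in Apoe-/- sham libraries 1 to 4. In wild type it had 18.8, 38.0 and 69.4 CPM in microbead libraries 1 to 3 and 9.11, 8.74, 3.60 and 6.45 CPM in sham libraries 1 to 4. Its log2 fold change was 1.84 (SE 0.72, edgeR adjusted p = 0.70) in Apoe-/- and 2.59 (SE 0.63, edgeR adjusted p = 0.11, DESeq2 adjusted p = 0.044) in wild-type retinas. Gpr34, a lysophospholipid receptor of resting microglia, had log2 fold changes of -0.30 (SE 0.31) in Apoe-/- and -0.96 (SE 0.34, edgeR adjusted p = 0.47) in wild-type retinas.

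Downstream of the receptor, 21 of 40 listed genes of Gi signalling were tested, with median log2 fold changes of -0.15 in Apoe-/- and 0.06 in wild-type retinas. The G protein beta subunit gene Gnb1 gave 0.46 (SE 0.40) in Apoe-/- and -1.27 (SE 0.43, edgeR adjusted p = 0.45) in wild-type retinas. Gnb2, which encodes another beta subunit, gave -0.41 (SE 0.44) in Apoe-/- and 1.06 (SE 0.46, edgeR adjusted p = 0.58) in wild-type retinas. Rgs10, a regulator that speeds the switching off of Gi proteins, had 202 ± 27.4 CPM in Apoe-/- microbead (SD, n = 4), 196 ± 10.7 CPM in Apoe-/- sham (SD, n = 4), 199 ± 22.5 CPM in wild-type microbead (SD, n = 3) and 208 ± 29.5 CPM in wild-type sham retinas (SD, n = 4). Prostaglandin genes act downstream of the receptor in skin, and 8 of 19 were tested, with medians of -0.02 in Apoe-/- and -0.24 in wild-type retinas. Hpgd, which breaks prostaglandins down, had 51.5 ± 34.3 CPM in Apoe-/- microbead and 70.4 ± 11.8 CPM in Apoe-/- sham retinas (SD, n = 4 each), and 26.3 ± 18.7 CPM in wild-type microbead (SD, n = 3) and 79.3 ± 8.53 CPM in wild-type sham retinas (SD, n = 4). Its log2 fold changes were -0.40 (SE 0.39) in Apoe-/- and -1.62 (SE 0.43, edgeR adjusted p = 0.19) in wild-type retinas. The r of Hpgd with Hcar2 over the 15 libraries was -0.85. Hpgd was named for its small wild-type p and Hcar2 was chosen for its wild-type change, so that r was partly set by the choice. Alox5, which encodes 5-lipoxygenase of leukotriene synthesis, gave -0.41 (SE 0.53) in Apoe-/- and -0.77 (SE 0.54) in wild-type retinas, but 0.39 in wild-type retinas on log2(TPM + 1).

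Genes that make, carry or burn the receptor's ketone body ligand gave no unadjusted edgeR p under 0.05 in either genotype. Of all genes tested, 6.95% gave one in Apoe-/- and 7.87% in wild-type retinas. Of 16 listed, 8 were tested and 7 had a positive log2 fold change in each genotype, with medians of 0.28 in Apoe-/- and 0.23 in wild-type retinas. The transporter gene Slc16a3 gave 0.41 (SE 0.69) in Apoe-/- and 1.09 (SE 0.58) in wild-type retinas, and Bsg, whose protein escorts such transporters to the membrane, gave 0.13 (SE 0.28) in Apoe-/- and 0.47 (SE 0.28) in wild-type retinas. For niacin and NAD, 7 of 19 genes were tested, with medians of 0.0031 in Apoe-/- and 0.54 in wild-type retinas. Nmrk1, a nicotinamide riboside kinase gene, gave -0.07 (SE 0.55) in Apoe-/- and -2.12 (SE 0.61, edgeR adjusted p = 0.27) in wild-type retinas, and the deacetylase gene Sirt2 gave 0.14 (SE 0.34) in Apoe-/- and 0.64 (SE 0.34) in wild-type retinas.

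The receptor is known to restrain NF-kB and inflammasome signalling in myeloid cells, and 20 of 23 listed genes of these pathways were tested. Log2 fold changes were positive in 15 of them in Apoe-/- and 13 in wild-type retinas, with medians of 0.42 in Apoe-/- and 0.40 in wild-type retinas. An unadjusted edgeR p under 0.05 was reached by 4 in Apoe-/- and 6 in wild-type retinas, all higher with microbeads. In either direction it was reached by 6.95% of all genes tested in Apoe-/- and by 7.87% in wild-type retinas. Nfkbiz, an atypical inhibitor of NF-kB, gave 1.39 (SE 0.62) in Apoe-/- and 1.82 (SE 0.56, edgeR adjusted p = 0.34) in wild-type retinas. The r of Nfkbiz with Hcar2 was 0.79, partly set by the choice of both genes on wild-type values. The cytokine gene Tnf had 6.21, 8.19, 9.72 and 60.7 CPM in Apoe-/- microbead libraries 1 to 4, against 14.3, 4.44, 10.4 and 7.83 CPM in Apoe-/- sham libraries 1 to 4, and its log2 fold change was 1.20 (SE 0.88). Without Apoe-/- microbead library 4 that value was -0.29. In wild type it had 8.69, 147 and 109 CPM in microbead libraries 1 to 3 and 25.8, 6.99, 35.97 and 10.8 CPM in sham libraries 1 to 4. As with Hcar2, wild-type microbead library 1 was the lowest of its group, and for Tnf it lay within the sham range.

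**Figure D4:**
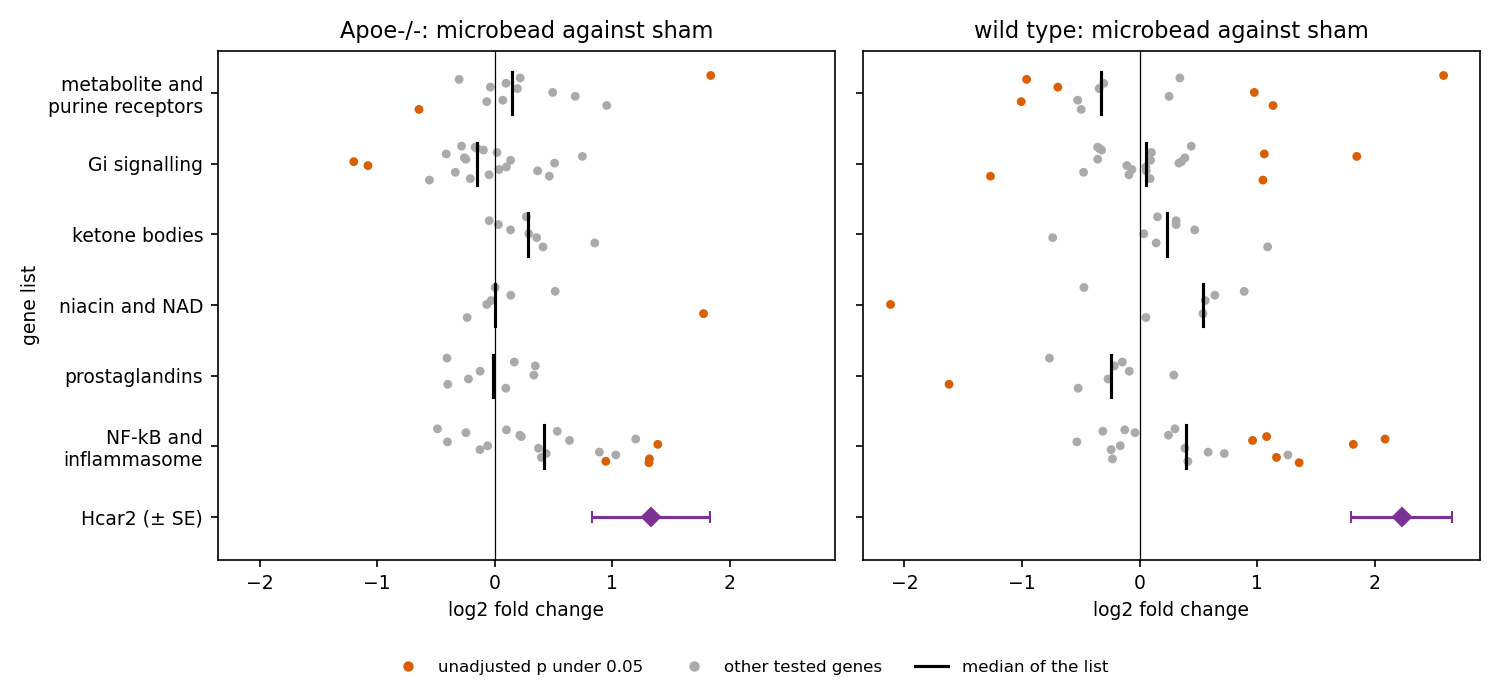
Log2 fold change, microbead against sham, of the tested genes of each pathway list and of Hcar2 with its SE, in Apoe-/- (left) and wild-type retinas (right). List medians lie between -0.32 and 0.54, while Hcar2 lies at 1.33 in Apoe-/- and 2.23 in wild-type retinas; Hcar2 was chosen on the wild-type comparison.

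Around Hcar2, 12 genes with transcripts in the tables lie within 250 kb and 6 were tested, Clip1, Zcchc8, Rsrc2, Denr, Ccdc62 and Vps37b. Clip1, which encodes a microtubule-binding protein, averaged 63.7 ± 18.6 CPM in Apoe-/- microbead (SD, n = 4), 67.0 ± 27.1 CPM in Apoe-/- sham (SD, n = 4), 62.0 ± 6.55 CPM in wild-type microbead (SD, n = 3) and 74.8 ± 14.2 CPM in wild-type sham retinas (SD, n = 4). The r of these 6 genes with Hcar2 lay between -0.24 for Ccdc62 and 0.27 for Vps37b. None of them was thus among the genes most like Hcar2.

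Markers of other cells that a sort from the retina can hold were measured beside Hcar2, as summed CPM and, for members with enough reads, as log2 fold changes of microbead against sham. Among 16 neutrophil markers S100a9 and Camp had 0 reads in all 15 libraries, and S100a8 and Ly6g had 1 read each. The chemokine receptor gene Cxcr2, of the same list, had 147 reads, with means of 15.3 CPM in Apoe-/- microbead, 32.2 CPM in Apoe-/- sham, 10.8 CPM in wild-type microbead and 23.6 CPM in wild-type sham retinas, and Hdc had 40 reads. The list summed to 327 to 412 CPM in Apoe-/- microbead, 271 to 318 CPM in Apoe-/- sham, 271 to 303 CPM in wild-type microbead and 248 to 302 CPM in wild-type sham libraries. Csf3r, which microglia also express, gave 59.0 to 98.9% of those sums, and the other 15 markers summed to 9.33 to 49.7 CPM in Apoe-/- microbead, 3.48 to 111 CPM in Apoe-/- sham, 10.997 to 25.3 CPM in wild-type microbead and 16.8 to 53.8 CPM in wild-type sham libraries.

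The summed level of 12 monocyte markers was 38.9 to 106 CPM in Apoe-/- microbead, 38.3 to 142 CPM in Apoe-/- sham, 49.2 to 153 CPM in wild-type microbead and 33.2 to 64.5 CPM in wild-type sham libraries, with reads for 5 to 9 of the 12. Ly6c2 had 0 reads in Apoe-/- microbead libraries and some in each of the other groups, while Ly6c1 had reads in none but wild-type sham libraries. Only 2 of the 12 were tested, both with a positive log2 fold change in each genotype, the median being 0.39 in Apoe-/- and 1.20 in wild-type retinas. One of the pair had an unadjusted edgeR p under 0.05 in wild type and neither did in Apoe-/- retinas. Among all genes tested the share was 7.87% in wild-type and 6.95% in Apoe-/- retinas. The 10 markers of macrophages at the borders of the tissue summed to 178 to 317 CPM in Apoe-/- microbead, 160 to 274 CPM in Apoe-/- sham, 171 to 212 CPM in wild-type microbead and 166 to 276 CPM in wild-type sham libraries, with median log2 fold changes over 4 tested genes of 0.21 in Apoe-/- and 0.09 in wild-type retinas.

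The 12 pigment epithelium markers summed to 10.9 to 35.2 CPM in Apoe-/- microbead, 19.0 to 48.8 CPM in Apoe-/- sham, 13.04 to 24.99 CPM in wild-type microbead and 10.8 to 36.0 CPM in wild-type sham libraries, and none of them had enough reads to be tested. For 12 markers of Müller glia the sums were 112 to 184 CPM in Apoe-/- microbead, 130 to 160 CPM in Apoe-/- sham, 169 to 315 CPM in wild-type microbead and 108 to 185 CPM in wild-type sham libraries, and 1 of 3 tested genes was higher in wild type at an unadjusted edgeR p under 0.05. Rod photoreceptor markers, 21 in number, summed to 221 to 2995 CPM in Apoe-/- microbead, 179 to 1869 CPM in Apoe-/- sham, 131 to 769 CPM in wild-type microbead and 656 to 3110 CPM in wild-type sham libraries. Of 20 tested, 19 had a positive log2 fold change in Apoe-/- retinas (median 0.75) and 0 in wild-type retinas (median -1.90). An unadjusted edgeR p under 0.05 was reached by 2 in Apoe-/- retinas, both higher, and 11 in wild-type retinas, all lower. Beside these Müller glia and rod counts, 6.95% of all genes tested reached it in Apoe-/- and 7.87% in wild-type retinas.

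Markers of the stress of dissociation, 19 genes, summed to 204 to 7203 CPM in Apoe-/- microbead, 240 to 2007 CPM in Apoe-/- sham, 1193 to 6982 CPM in wild-type microbead and 301 to 3503 CPM in wild-type sham libraries. Of 13 tested, 12 had a positive log2 fold change in Apoe-/- retinas (median 1.23) and 13 in wild-type retinas (median 0.94), beside 1.33 for Hcar2 in Apoe-/- and 2.23 in wild-type retinas. Of these, 2 in Apoe-/- and 1 in wild-type retinas had an unadjusted edgeR p under 0.05. The 10 housekeeping genes, all tested, had median log2 fold changes of 0.33 in Apoe-/- and 0.63 in wild-type retinas, and 3 in each genotype were higher at an unadjusted edgeR p under 0.05. Over all genes tested, 6.95% in Apoe-/- and 7.87% in wild-type retinas had such a p in either direction. No gene of these 8 lists passed an adjusted p under 0.05 by edgeR or DESeq2 in either genotype. The part of any of these transcripts in the Hcar2 values was not tested.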

How the data were processed

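Per the file headers, the authors deposited 1 Salmon table per library with estimated counts of reads and TPM per transcript, and 1 table of gene TPM for the series, which names SMART-Seq2, a protocol that reads whole transcripts from few cells. The submitters' processing notes list mm10 as the build, with DESeq2 1.30.1, R 4.0.3 and Salmon 1.4.0. Which annotation, library type and read filter were used is not given in the sources used here. Estimated counts were summed per gene with GENCODE M21 (35519 genes; 116023 of 116945 transcripts assigned; 0.217 to 0.354% of reads unassigned) and rounded to whole numbers. Gene sums of TPM equalled those in the authors' table for 99.7% of values, with a relative tolerance of 0.001.

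One edgeR 4.0.16 quasi-likelihood model (R 4.3.3, TMM, filterByExpr) was fitted to 15 libraries in 4 groups, and p-values are two-sided and adjusted by Benjamini-Hochberg over 6521 genes, with a threshold of 0.05. It was tested on simulated data, with changes larger than that of Hcar2 in Apoe-/- retinas, so a change of that size was not covered. Single values were compared by exact permutation tests over all arrangements of the libraries, run in Python 3.11.15. Exact Poisson intervals came from scipy 1.17.1. DESeq2 1.42.0, limma 3.58.1 on log2(TPM + 1) and log2(TPM + 0.1), other filters and scalings, a replicate block and leaving out each library in turn were alternatives. Same-numbered libraries of a genotype did not deviate together (r of -0.161 to 0.029), so no pairing was used, and libraries of the same group differed by more than sampling noise (chi-square over degrees of freedom at least 2.11).

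The gene, the lists and the rule for naming genes were chosen with earlier results of these data known. Besides Hcar2 and Hcar1 the rule names the 10 genes most correlated with Hcar2, any pathway gene with an adjusted p under 0.05, the 2 of each pathway list with the smallest wild-type p and the 2 with the highest CPM, and tested genes within 250 kb. Genes named outside this rule (Gpr84, Ffar1, Ffar2, Ffar3, Ffar4, Sucnr1, Apoe and cell markers) were chosen after their values were seen.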

Additional observations from a re-analysis of the deposited data

Results flagged for a closer look

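Among 111 combinations of a named gene and a group of 4 libraries, 8 had a library whose gap to the nearest other was above Dixon's 95% critical value of 0.829 times the range of the group. Chance flags about 1 in 20 groups. Hcar2 itself was not among them in any group. Each value is given as CPM, and no cause was tested.

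In Apoe-/- microbead retinas, library 4 had 60.7 CPM of Tnf, with the other 3 libraries between 6.21 and 9.72. The same library had 208 CPM of Nfkbia, an inhibitor of NF-kB, with the others between 75.8 and 84.9. Library 3 had 33.0 CPM of Gnb2, with the others between 13.7 and 16.6. Library 2 had 62.8 CPM of Zcchc8, a neighbour of Hcar2 on chromosome 5, with the others between 14.5 and 19.4. Hcar2 was at 44.7 CPM in library 3, 38.2 CPM in library 2 and 20.2 CPM in library 4.

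In Apoe-/- sham retinas, library 2 had 26.6 CPM of Clip1, another neighbour of Hcar2, with the others between 76.1 and 83.5. Hcar2 was at 4.44 CPM in that library. Library 3 had 80.0 CPM of Parp1, an enzyme that consumes NAD, with the others between 57.1 and 57.7.

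In wild-type sham retinas, library 1 had 447 CPM of Gpr34, with the others between 308 and 327. Library 2 had 603 CPM of P2ry12, with the others between 724 and 747.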

How the results depend on the processing

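The Hcar2 log2 fold change, microbead against sham, lay between 0.92 and 1.80 over 23 alternatives in Apoe-/- retinas, with adjusted p of 0.391 to 0.967, and between 2.01 and 2.86 over 24 alternatives in wild-type retinas, positive in all. With the replicate number as a block it was 1.29 (adjusted p = 0.809) in Apoe-/- and 2.202 in wild-type retinas, and no call on Hcar2 or count of pathway genes called changed with the block. The fit of the compared groups alone gave no Apoe-/- value, since Hcar2 did not pass its filter. On log2(TPM + 0.1) the Apoe-/- against wild-type difference moved to -2.41 in microbead retinas, where the median of all genes was -0.94, and to -1.35 in sham retinas, where it was -0.43. Library sizes without satellite reads moved the median of all genes by up to 0.15. The exact permutation p for Apoe-/- retinas was 0.0286 on TPM, in an alternative added after seeing the data, as were the other scales of that test.

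The number of pathway genes called in wild-type retinas was 0 as reported, 6 with no filter on low counts, 1 by DESeq2, 4 on log2(TPM + 1), 1 in the fit of the compared groups alone and 0 to 2 when each library was left out. Of the 10 genes most like Hcar2, 2 were shared by Spearman's rho, 1 after group means were removed, 3 on log2(TPM + 1) and 4 to 10 when each library was left out. Reversed log2 fold changes in Apoe-/- retinas, with the range over left-out libraries, were -0.035 for Slc16a3 (-0.035 to 0.94) and -0.0022 for Bsg (-0.0022 to 0.31), both without microbead library 2. Sirt2 gave -0.14 (-0.14 to 0.28) without the same library, and Tnf gave -0.29 (-0.29 to 1.49) without microbead library 4. Nmrk1 gave 0.090 with no filter, 0.17 on log2(TPM + 1), 0.28 on log2(TPM + 0.1), 0.063 without satellite reads in the library size, and -0.40 to 0.43 with 1 library left out. In wild-type retinas Alox5 gave 0.39 on log2(TPM + 1) and 0.57 on log2(TPM + 0.1). The cause was not tested. At 1 to 23 Hcar2 reads in an Apoe-/- library, counting error alone is wide, and depth limits what can be said of that genotype.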
